A study of Mus musculus with 8 samples.

Results

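Solute carriers were examined in normal colon and colon tumors of mice labelled as caspase-12 deficient and of mice labelled as wild-type. The set comprised the genes on the array whose symbol begins with Slc, with the mitochondrial Slc25 family left out, whose probe had a detection p-value under 0.01 on at least 2 of the 8 arrays. Members were thus selected on measured detection, and 161 of 298 such genes met the rule. Where several probes of a gene did, the brightest on average stood for it. They stand among 9341 named genes tested. RNA had been labelled with Cy3 and hybridized to Illumina bead arrays. All mice were of the C57BL/6 strain, and each group had 2 arrays. C12-T was colon tumor from caspase-12 deficient mice, C12-N was normal colon from caspase-12 deficient mice, WT-T was colon tumor from wild-type mice, and WT-N was normal colon from wild-type mice. The sources used here do not say whether the arrays of a group came from separate animals, how tumors arose, or which stretch of colon was sampled. The p-values below therefore reflect no more than how far these arrays differ from each other, which could be technical.

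Solute carriers are membrane proteins that move ions, nutrients, metals, bile acids and metabolites into or out of cells and organelles, either down a gradient or coupled to sodium, protons or an exchanged solute. In the colon, absorptive epithelial cells use them to exchange chloride for bicarbonate, to take up short-chain fatty acids made by bacteria, and to pass bile acids and metals on to the blood. Growing cells use amino acid, glucose and nucleoside carriers to import building blocks.

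Detection decided membership, so a gene above background in one group alone could enter only by differing between groups, and the counts below describe the set and are not independent evidence of a difference. Of the members, 109 were above background on all 8 arrays and 7 on exactly 2 arrays. Those 7 were Slc18a2, Slc1a3, Slc24a1, Slc34a1, Slc35d3, Slc35e4 and Slc4a1, with mean intensities of 165.3 to 1155. A further 19 genes fell just outside with detection on 1 array and mean intensities of 139.9 to 230.8, and the best probe of 118 genes was above background on none. Slc18a2, the vesicular monoamine transporter, and Slc35d3, a nucleotide sugar carrier family member, were above background in C12-N alone. Likewise Slc47a1 in C12-N, Slc39a10 and Slc7a6 in C12-T, and Slc6a7 in WT-T would not have met the rule without the group where they were higher. Calls of these 6 in that direction are included in the counts (4 in C12-T against C12-N, 1 in C12-N against WT-N and 3 in C12-T against WT-T), and their values below are a description, with no test. Some well-known carriers were not measured: no probe carried the name of Slc9a3, Slc9a2 or Slc3a1, and the probes of Slc4a4, Slc10a2, Slc16a1, Slc16a3, Slc6a14 and Slc37a2 did not meet the detection rule.

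Mean intensity per array lay between 1112.5 and 1181.52, and between 43.7% and 49.1% of probes were above background. The Casp12 probe, the check of the genotype label, was above background on 1 array of C12-T (6.97, with 5.96 on the other), 1 array of C12-N (7.21, with 6.50 on the other) and no wild-type array (5.73 to 5.88). Its levels thus ran opposite to the genotype labels, but no group difference was called for it, and its place relative to the deleted part is unknown. A mislabelled array was not tested for and remains possible, and the words deficient, wild-type, tumor and normal below are those of the labels. The library labelled WT-T2 correlated with the WT-N arrays at 0.972 and 0.973, close to the 0.976 between the WT-N arrays, whereas WT-T1 correlated with them at 0.927 and 0.922. C12-T1 alone carried a high summed intensity of skeletal muscle markers (5.858e+04, against 485.3 on C12-T2). Members on C12-T1 and C12-T2 lay more than 2 log2 units apart in 8 cases, namely Slc10a6, Slc12a8, Slc13a2, Slc15a2, Slc47a1, Slc4a1, Slc51b and Slc5a8. The median replicate gap over all members was 0.38 in C12-T, 0.32 in C12-N, 0.28 in WT-T and 0.25 in WT-N.

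The first comparison set tumor against normal colon within caspase-12 deficient mice. Carriers of bile acids, organic ions, carboxylates, inorganic ions and metals included the largest falls, whereas the largest rises, of Slc7a11 and Slc15a3, were those of an amino acid and a peptide carrier. In limma, 55 of 161 members were called at an adjusted p under 0.05, 16 higher and 39 lower in C12-T than in C12-N. That was 34.2% of members, beside 19.4% of all 13327 probes tested, with 9.94% of members higher against 8.7% of all probes, and 24.2% lower against 10.7%. The median log2 difference was -0.26 over the members and -0.02 over all probes. The arrays of the groups did not overlap for 37 members higher and 72 lower, beside 30.2% and 33.6% of all probes (63.8% in all). In bulk tissue, fewer cells of a type and less RNA per cell cannot be told apart. Beside these calls, summed intensity of the 5 absorptive colonocyte markers with a probe ran from 3973 to 9568 in C12-T and from 5.937e+04 to 7.041e+04 in C12-N, and all 5 were called lower. Summed intensity of 7 leukocyte markers ran from 7.291e+04 to 9.09e+04 in C12-T and from 7217 to 9072 in C12-N. Of these 7, 5 were called higher, with a median log2 difference of 1.66. S100a8 and S100a9 differed most, by 7.12 and 7.41, whereas Ptprc (1.18, adjusted p = 0.0783) and Cd52 (1.64, 0.157) were not called. Summed intensity of 6 squamous epithelial markers ran from 5.461e+04 to 1.29e+05 in C12-T and from 1854 to 1919 in C12-N, with 4 called higher. Among those 4, Trp63 and Krtdap would not have met the detection rule without C12-T. The 6 proximal or small intestinal markers summed to 314 to 505.6 in C12-T and 2152 to 3069 in C12-N. Of these, Sis (-3.55), Cyp4b1 (-3.54) and Hoxb6 (-4.19) met the detection rule through C12-N alone, so their falls are a description, with no test. Fabp6 was not called (-1.1, adjusted p = 0.222). Of 3 distal colon markers, Hoxd12 (4.08) and Hoxd13 (2.81) were called higher, and Hoxd10 (0.28) was not called. The markers' part in the carrier results was not tested. The count was 34 without C12-T1 (21.1% of members, beside 11.6% of all probes) and 19 without C12-N1 or C12-N2 (11.8% beside 7.13% and 6.07%), and 15 calls were kept with each of the 8 arrays left out in turn.

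**Figure D1:**
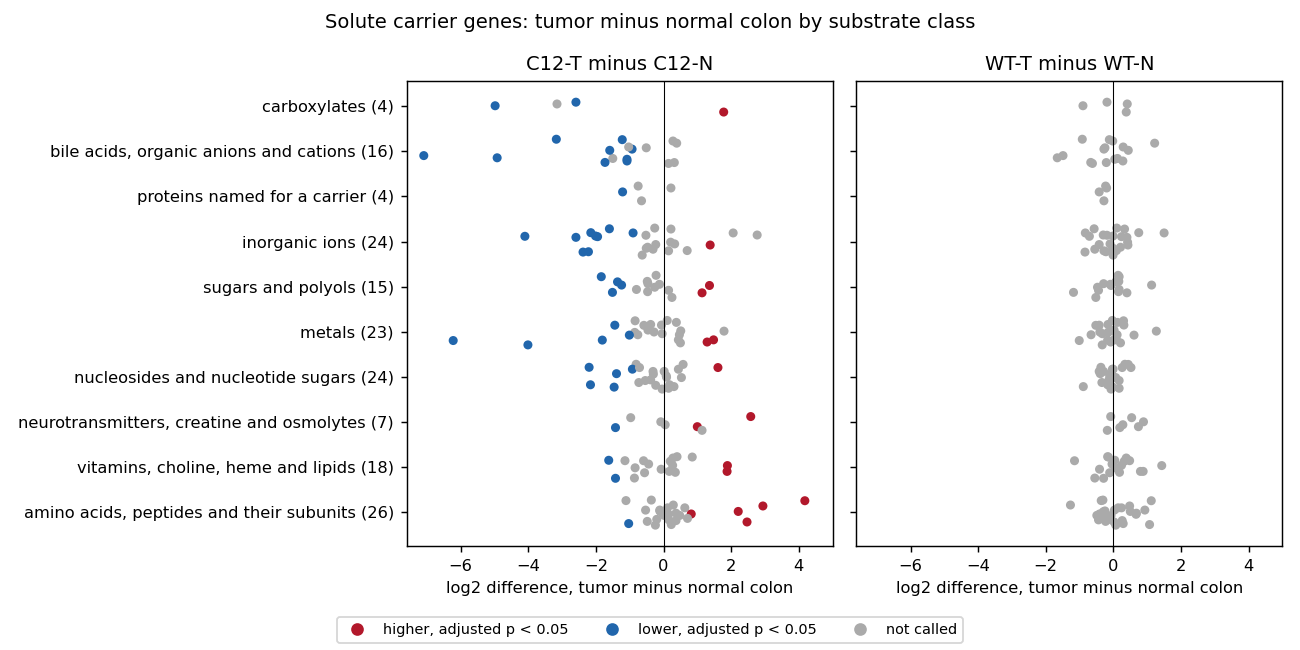
Log2 difference of each member, tumor minus normal colon, by substrate class (number of members in parentheses), in caspase-12 deficient mice on the left and wild-type mice on the right; each point is 1 gene and vertical scatter has no meaning. The 55 coloured points of the left panel are the calls at an adjusted p under 0.05, 39 lower and 16 higher, and the right panel has none.

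Bile acid, organic anion and organic cation carriers gave 9 falls and no rise among 16 members, with a median of -1.08. Slc51a (probe ILMN_2746116, chromosome 16) encodes the α subunit of the exporter that passes bile acids from enterocytes into blood. Its normalized log2 intensity, the scale of every level below, was 6.14 and 6.36 in C12-T, 13.06 and 13.62 in C12-N, 5.41 and 6.86 in WT-T and 7.70 and 7.55 in WT-N. It was high on both C12-N arrays and below background on both C12-T arrays, and the C12-N values stood apart from those of every other group. The log2 difference, with its standard error and limma p-value adjusted over all probes, was -7.09 ± 0.45 (adjusted p = 0.000412), a fall of at least 120-fold, with the C12-T group set at the lowest signal above background. An "at least" fold below is made the same way, and its log2 difference is that of the measured means. Slc51b, the β subunit, read 5.38 and 8.37 in C12-T, 10.64 and 12.95 in C12-N, 7.90 and 9.79 in WT-T and 9.71 and 11.29 in WT-N. Its replicates spread widely in every group, but the C12-T and C12-N values did not overlap, with a difference of -4.92 ± 1.18 (adjusted p = 0.0265). Slc47a1, a proton-coupled exporter of organic cations, read 7.48 and 5.19 in C12-T, against 9.57 and 9.45 in C12-N, a difference of -3.17 ± 0.66 given as a description. Only 1 of the C12-T arrays was above background for it. The other falls were Slc22a18, an organic cation carrier family member (-1.73), Slco2b1, an organic anion uptake carrier (-1.59), the orphan carrier Slc22a23 (-1.22), Slc22a5, the carnitine carrier (-1.08), Slco2a1, the prostaglandin carrier (-1.08), and Slc10a7, of the bile acid carrier family (at least 1.47-fold). A further tested probe of Slc10a7 was not called (-0.59, adjusted p = 0.27). Further probes of Slc22a5 gave -1.38 (adjusted p = 0.0111) and -0.49 (0.161), the latter not called. Slc51a kept its call with any 1 array left out. Slc51b lost it without C12-N1, C12-N2 or C12-T1 (adjusted p = 0.0558, 0.158 and 0.0977). Slco2b1 lost it without 1 array (0.0709), Slc22a18 and Slc22a23 without 2 each (up to 0.0754 and 0.0936), Slc22a5 without 4 (up to 0.147), Slc10a7 without 5 (up to 0.143) and Slco2a1 without 7 (up to 0.183).

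**Figure D2:**
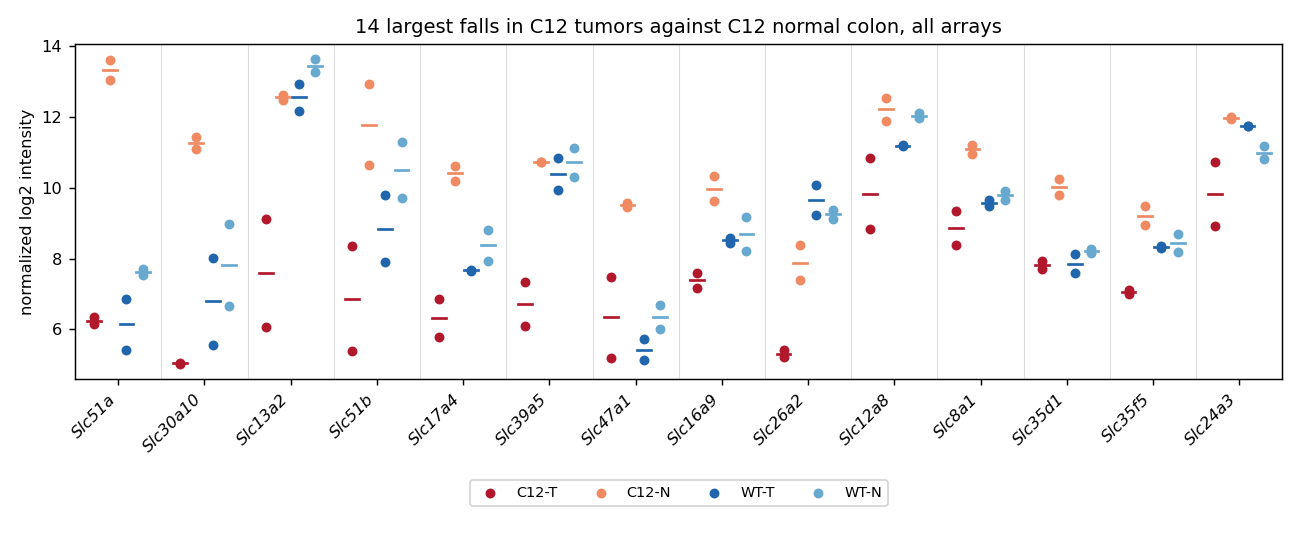
Normalized log2 intensity on each array of the 14 members with the largest called falls in C12-T against C12-N; points are arrays, short bars are group means, and groups run C12-T, C12-N, WT-T, WT-N within each gene. Slc51a stands above 13 on both C12-N arrays and below 8 on the other 6 arrays, and Slc30a10 is above 11 on the C12-N arrays alone.

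Carboxylate carriers had 4 members. Slc13a2, the sodium-coupled carrier of dicarboxylates and citrate, read 6.07 and 9.11 in C12-T, 12.64 and 12.50 in C12-N, 12.18 and 12.93 in WT-T and 13.28 and 13.64 in WT-N. It was high in all groups except C12-T, where the arrays lay more than 2 log2 units apart and both below every other array. The difference was -4.98 ± 0.83 (adjusted p = 0.00773). Slc16a9, of the monocarboxylate carrier family, fell by 2.59 ± 0.38 (adjusted p = 0.00514), with 7.18 and 7.60 in C12-T, against 10.35 and 9.62 in C12-N. Slc16a6, of the same family, rose by 1.78 ± 0.44 (adjusted p = 0.0286). Slc5a8, the sodium-coupled carrier that takes up butyrate and other short-chain fatty acids, read 7.80 and 11.39 in C12-T, 12.78 and 12.70 in C12-N, 14.41 and 13.95 in WT-T and 13.89 and 13.65 in WT-N. Both C12-T arrays lay below all others but more than 2 log2 units apart, and the difference of -3.15 ± 0.95 missed the threshold (adjusted p = 0.0564). Slc16a9 kept its call with each array left out, whereas Slc13a2 lost it without C12-N1 or C12-N2 (adjusted p = 0.0576 and 0.0572). Slc16a6 lost its call without any 1 of the C12-T and C12-N arrays (up to 0.149).

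In the class of inorganic ion carriers, sorted by family, 9 of 24 members fell and 1 rose. The class holds all Slc17 members, among them Slc17a9, a nucleotide carrier. Slc26a3, which exchanges luminal chloride for bicarbonate in colonocytes, read 5.02 and 4.94 in C12-T, 6.89 and 6.98 in C12-N, 7.38 and 8.25 in WT-T and 7.61 and 7.54 in WT-N. It was below background on both C12-T arrays and above background in the other groups, and fell at least 1.41-fold (log2 difference -1.95 ± 0.30, adjusted p = 0.0057). Slc26a2, the sulfate carrier of the same family, read 5.41 and 5.21 in C12-T, 8.38 and 7.41 in C12-N, 9.23 and 10.07 in WT-T and 9.38 and 9.12 in WT-N, again with both C12-T arrays below background and lowest. Its fall was at least 2.74-fold, with a log2 difference of -2.59 ± 0.39 (adjusted p = 0.00564). Slc17a4, a sodium-coupled phosphate carrier family member of the gut, read 6.85 and 5.79 in C12-T, 10.21 and 10.62 in C12-N, 7.69 and 7.65 in WT-T and 7.94 and 8.82 in WT-N, highest on the C12-N arrays and lowest on the C12-T arrays. Its difference was -4.10 ± 0.42 (adjusted p = 0.0014).

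Of the sodium-calcium exchangers, Slc8a1 fell by 2.22 ± 0.33 (adjusted p = 0.00528), and Slc24a3, which also moves potassium, by 2.15 ± 0.51 (0.0255), whereas Slc8b1 gave 0.33 ± 0.25 (adjusted p = 0.396), and Slc24a1 was below background in both groups. The other falls were Slc12a8, of the cation-chloride cotransporter family (-2.38), Slc20a1, a sodium-phosphate importer (-2.01), Slc17a9, which loads nucleotides into vesicles (-1.60), and Slc4a2, a chloride-bicarbonate exchanger (-0.90). Slc20a1 and Slc20a2, both sodium-phosphate importers, moved in opposite directions. Slc20a1 read 7.99 and 8.63 in C12-T, against 10.33 and 10.31 in C12-N, whereas Slc20a2 read 12.07 and 10.96 in C12-T, against 10.25 and 10.03 in C12-N, a rise of 1.38 ± 0.39 (adjusted p = 0.0473). Slc12a2, the sodium-potassium-chloride importer used in fluid secretion, overlapped between the groups at 14.27 and 14.43 in C12-T, 13.97 and 14.30 in C12-N, 14.40 and 13.53 in WT-T and 13.47 and 13.60 in WT-N (0.21 ± 0.31, adjusted p = 0.67). Slc26a2, Slc26a3, Slc17a4 and Slc8a1 kept their calls with each array left out. Slc20a1 lost its call without C12-N1, C12-N2 or C12-T1 (adjusted p = 0.11, 0.116 and 0.101), and Slc20a2 without any 1 array other than C12-T2 (up to 0.194). Slc24a3 lost it without 2 arrays (up to 0.123), Slc17a9 without 3 (up to 0.152), Slc12a8 without 4 (up to 0.15) and Slc4a2 without any 1 of the 8 (up to 0.181).

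Metal carriers numbered 23, of which 5 fell and 2 rose. Slc30a10 (probe ILMN_2812926, chromosome 1), a manganese exporter, read 5.05 and 5.03 in C12-T, 11.09 and 11.43 in C12-N, 5.57 and 8.03 in WT-T and 8.97 and 6.66 in WT-N. Both C12-N arrays were high, both C12-T arrays were below background, and each wild-type group had 1 array above background and 1 below. The fall was at least 28.3-fold, with a log2 difference of -6.22 ± 0.89 (adjusted p = 0.00462). Slc39a5, a zinc importer of the basolateral membrane, read 6.11 and 7.33 in C12-T, 10.74 and 10.72 in C12-N, 9.94 and 10.84 in WT-T and 11.12 and 10.32 in WT-N, low in C12-T alone. Its difference was -4.01 ± 0.48 (adjusted p = 0.00241), and its 3 other tested probes gave -3.66, -3.37 and -0.44, the last not called (adjusted p = 0.286). Slc30a1, the zinc exporter of the plasma membrane, fell by 1.81 ± 0.32 (adjusted p = 0.00909), with 7.92 and 8.45 in C12-T, against 10 and 9.99 in C12-N. Slc30a4, another zinc exporter, and Slc40a1, ferroportin, the iron exporter, fell by 1.44 and 1.01. Slc31a1, the copper importer, rose by 1.48 ± 0.32 (adjusted p = 0.0191), and Slc39a10, a zinc importer below background in C12-N, was at least 2.09-fold higher (1.29 ± 0.37, a description). Slc39a4, the zinc importer of the luminal membrane, gave -0.76 (adjusted p = 0.112), Slc11a2, the divalent metal importer, -0.04 (0.947), and Slc39a8, a zinc and manganese importer, -0.58 (0.456). Slc30a10 and Slc39a5 kept their calls with each array left out, whereas Slc30a1 lost it without C12-N1 or C12-N2 (0.0585 and 0.06), and Slc31a1 without C12-N1, C12-N2 or C12-T1 (0.0865, 0.1 and 0.0669). Slc40a1 lost it without 5 of the arrays (up to 0.14, without C12-N2) and Slc30a4 without 3 (up to 0.187).

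Zinc export is known to respond to metal through short response elements. The promoters of Slc30a1, a called zinc exporter, and Slc30a10, a called manganese exporter, are shown as examples that hold their core letters. Of the other called exporters, Slc30a4 held a match too, whereas Slc40a1 was not among the genes with one. RefSeq sequences (GRCm38.p6) run from 250 bases before to 50 after the start site and were matched for 129 of the 161 members. Capitals mark the core letters TGCACNC or TGCGCNC, searched on both strands. Slc30a1 lies at chr1:191906531-191906830 and Slc30a10 at chr1:185454598-185454897, both on the plus strand.
Slc30a1: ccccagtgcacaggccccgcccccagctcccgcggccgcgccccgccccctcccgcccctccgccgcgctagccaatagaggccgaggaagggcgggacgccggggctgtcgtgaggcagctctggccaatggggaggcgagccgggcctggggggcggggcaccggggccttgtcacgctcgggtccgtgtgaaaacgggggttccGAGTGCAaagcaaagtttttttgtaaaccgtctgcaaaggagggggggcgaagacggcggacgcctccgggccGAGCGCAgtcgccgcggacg
Slc30a10: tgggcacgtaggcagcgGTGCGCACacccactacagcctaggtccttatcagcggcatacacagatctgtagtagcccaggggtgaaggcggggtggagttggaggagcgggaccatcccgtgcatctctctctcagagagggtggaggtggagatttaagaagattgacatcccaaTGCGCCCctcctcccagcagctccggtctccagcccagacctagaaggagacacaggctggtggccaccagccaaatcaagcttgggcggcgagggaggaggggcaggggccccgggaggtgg
Slc30a1 held 2 matches. Slc30a10 held 3, of which 2 overlap on opposite strands. Counted per gene, with any window of a gene, 12 of 19 metal carriers with a promoter held a match (63.2%), beside 48 of 110 other members (43.6%) and 28.2% of the 27025 genes in the table. Of single windows, 25.7% of 32851 did. A match is a description of letters and does not show that a factor binds. Mt1 and Mt2, metallothioneins known for the same elements, gave 0.48 (adjusted p = 0.523) and 1.15 (0.152) in C12-T against C12-N.

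Amino acid and peptide carriers and their subunits gave 5 rises and 1 fall among 26 members, with a median of 0.16. Slc7a11 (probe ILMN_2948143, chromosome 3), which imports cystine in exchange for glutamate, read 10.78 and 10.21 in C12-T, 6.25 and 6.37 in C12-N, 8.93 and 6.44 in WT-T and 6.02 and 7.09 in WT-N. Both C12-T arrays were the highest of all, C12-N was below background, and in the wild-type groups only WT-T1 and WT-N2 were above background. It rose at least 12.8-fold, with a log2 difference of 4.18 ± 0.74 (adjusted p = 0.00934). Slc7a5 (probe ILMN_2711948, chromosome 8), the light chain of the large neutral amino acid exchanger, read 11.50 and 11.57 in C12-T, 9.35 and 8.77 in C12-N, 9.91 and 9.48 in WT-T and 9.49 and 9.86 in WT-N. Its C12-T arrays lay close together and above all 6 other arrays, a rise of 2.47 ± 0.29 (adjusted p = 0.00204). The heavy chain with which Slc7a5 and Slc7a11 pair, Slc3a2, read 8.45 and 8.14 in C12-T, 7.79 and 7.84 in C12-N, 8.15 and 8.24 in WT-T and 8.39 and 8.15 in WT-N, and its difference of 0.48 ± 0.22 was not called (adjusted p = 0.168). Slc15a3, a lysosomal histidine and peptide carrier, read 10.03 and 9.94 in C12-T, 7.28 and 6.82 in C12-N, 8.33 and 8.43 in WT-T and 7.36 and 8.45 in WT-N, highest in C12-T, and rose by 2.94 ± 0.36 (adjusted p = 0.00262). Slc7a8, a second light chain for large neutral amino acids, rose by 2.21 ± 0.64 (adjusted p = 0.0487), and Slc66a1, which exports cationic amino acids from lysosomes, by 0.82 ± 0.21 (adjusted p = 0.0351). Slc6a17, a vesicular neutral amino acid carrier, fell at least 1.6-fold (-1.03 ± 0.27, adjusted p = 0.0351). Slc6a19, the luminal neutral amino acid importer, gave -0.48 (adjusted p = 0.215). Slc7a5 and Slc15a3 kept their calls with each array left out, and Slc7a11 lost it without C12-N1 or C12-N2 (0.0644 and 0.064). Slc7a8 was lost without 7 arrays (up to 0.21), Slc66a1 without 6 (up to 0.146) and Slc6a17 without 5 (up to 0.161, without C12-T1).

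**Figure D3:**
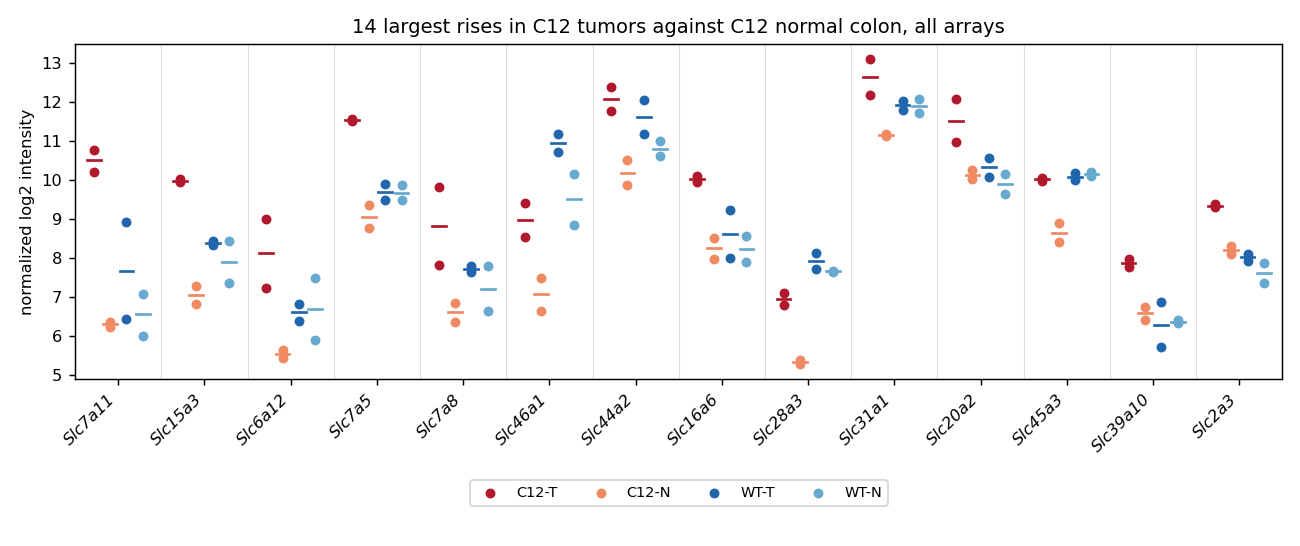
Normalized log2 intensity on each array of the 14 members with the largest called rises in C12-T against C12-N; points are arrays, short bars are group means, and groups run C12-T, C12-N, WT-T, WT-N within each gene. Slc7a11 stands above 10 on both C12-T arrays and below 9 on the other 6, and Slc7a5 is above 11 on the C12-T arrays alone.

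The Slc7a11 promoter is shown because it holds amino acid response cores, the letters TGATGNAA bound by the stress factor ATF4. The window lies at chr3:50443564-50443863 on the minus strand (GRCm38.p6, RefSeq), and capitals mark 1 match on each strand.
Slc7a11: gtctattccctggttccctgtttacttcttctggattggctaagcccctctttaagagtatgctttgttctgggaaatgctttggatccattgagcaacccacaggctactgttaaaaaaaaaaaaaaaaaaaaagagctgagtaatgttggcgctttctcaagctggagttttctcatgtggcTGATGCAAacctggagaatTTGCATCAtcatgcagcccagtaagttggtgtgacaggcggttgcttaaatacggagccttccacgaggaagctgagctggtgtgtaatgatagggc
The matches run from -66 to -59 and from -47 to -40 relative to the start site, with the first transcribed base as position 0. Such a match was present in 3 of the 22 amino acid carriers with a promoter (Slc1a4, Slc7a11 and Slc7a7), beside 3 of 107 other members and 4.51% of genes in the table, again counted per gene, and in 3.97% of single windows. Slc1a4, an exchanger of small neutral amino acids, and Slc7a7, a cationic amino acid exchanger, were not called in this comparison (0.29 ± 0.42, adjusted p = 0.666 and 0.16 ± 0.28, adjusted p = 0.719).

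Sugar and polyol carriers split, with 4 falls and 2 rises among 15 members. Slc2a13, which imports myo-inositol with protons, read 7.80 and 8.54 in C12-T, 10.03 and 10.01 in C12-N, 10.32 and 10.06 in WT-T and 10.17 and 9.88 in WT-N, low in C12-T alone, and fell by 1.84 ± 0.29 (adjusted p = 0.00625). Slc2a10, of the glucose carrier family, fell by 1.51 ± 0.32 (0.0178), Slc37a1, of the sugar phosphate carrier family, by 1.36 ± 0.39 (0.0491), and Slc2a4, the insulin-regulated glucose carrier, by 1.24 ± 0.24 (0.0131). Slc2a3, a high-affinity glucose importer, read 9.39 and 9.30 in C12-T, 8.30 and 8.10 in C12-N, 8.11 and 7.93 in WT-T and 7.36 and 7.88 in WT-N, highest in C12-T, a rise of 1.14 ± 0.25 (adjusted p = 0.0193). Slc45a3, of the sucrose carrier-like family, read 10.06 and 9.97 in C12-T, 8.90 and 8.41 in C12-N, 10.18 and 9.99 in WT-T and 10.20 and 10.10 in WT-N. Its C12-N arrays were the low ones, and the other groups lay together, so that its rise was 1.36 ± 0.24 (adjusted p = 0.00909). The widely used glucose importer Slc2a1 gave -0.48 ± 0.28 (adjusted p = 0.263), and Slc5a1, the sodium-glucose carrier, -0.47 ± 0.27 (adjusted p = 0.256). Slc2a13 kept its call with each array left out. Slc45a3 lost it without C12-N2 (0.0586), Slc2a4 without 1 array (0.0774), Slc2a10 and Slc2a3 without C12-N1, C12-N2 or C12-T1 (up to 0.0992 and 0.106), and Slc37a1 without any 1 array (up to 0.216).

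Nucleoside and nucleotide sugar carriers had 5 falls and 1 rise among 24 members. Slc35d1, which brings UDP-glucuronic acid and UDP-N-acetylgalactosamine into the endoplasmic reticulum, read 7.94 and 7.72 in C12-T, 10.25 and 9.81 in C12-N, 8.12 and 7.59 in WT-T and 8.28 and 8.16 in WT-N. It was high in C12-N alone, with the other 6 arrays between 7.59 and 8.28, and fell by 2.20 ± 0.27 (adjusted p = 0.00261). Slc35f5, an orphan of the same superfamily, fell by 2.16 ± 0.27 (0.00294), and Slc35d3 was at least 1.46-fold lower (-1.46 ± 0.21, a description). Slc35a1, which carries CMP-sialic acid into the Golgi, and Slc35a5 of the same family fell by 1.39 and 0.92. A further probe of Slc35a1 was also called (-2.19, adjusted p = 0.0198), and that of Slc35a5 was not (-0.51, 0.161). Slc28a3, the concentrative nucleoside importer, read 6.81 and 7.11 in C12-T, 5.39 and 5.30 in C12-N, 8.12 and 7.73 in WT-T and 7.65 and 7.67 in WT-N. Only C12-N was below background, and the rise was at least 1.11-fold (1.61 ± 0.23, adjusted p = 0.00477). Slc29a1, the equilibrative nucleoside carrier, gave -0.38 (adjusted p = 0.306). Slc35d1, Slc35f5 and Slc28a3 kept their calls with each array left out, whereas Slc35a1 and Slc35a5 each lost theirs without 7 of the arrays (up to 0.161 and 0.224).

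Of 7 carriers of neurotransmitters, creatine and osmolytes, 2 rose and 1 fell. Slc6a12, the betaine and GABA importer, read 9.01 and 7.25 in C12-T, against 5.64 and 5.45 in C12-N, where C12-N was below background, and rose at least 2.49-fold (2.58 ± 0.65, adjusted p = 0.0316). Slc6a8, the creatine importer, rose by 1.00 ± 0.22 (adjusted p = 0.0195). Slc18a2 was at least 1.38-fold lower (-1.42 ± 0.27, a description). Slc6a8 lost its call without any 1 of the C12-T and C12-N arrays (up to 0.0932) and Slc6a12 without 5 arrays (up to 0.147, without C12-N2).

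Carriers of vitamins, choline, heme and lipids had 2 rises and 2 falls among 18 members. Slc44a4, which takes up thiamine pyrophosphate in the colon, read 11.99 and 11.75 in C12-T, 13.39 and 13.18 in C12-N, 13.42 and 13.56 in WT-T and 13.58 and 13.99 in WT-N, low in C12-T alone, and fell by 1.42 ± 0.24 (adjusted p = 0.00779). Slc27a2, a fatty acid carrier, was below background in C12-T and fell at least 2.71-fold (-1.62 ± 0.30, adjusted p = 0.0108). Slc46a1, the proton-coupled folate importer, read 9.41 and 8.53 in C12-T, 7.49 and 6.66 in C12-N, 10.71 and 11.17 in WT-T and 10.16 and 8.86 in WT-N. It rose by 1.89 ± 0.51 (adjusted p = 0.0401), and both C12-T arrays were below both WT-T arrays. Slc44a2, of the choline carrier-like family, rose by 1.88 ± 0.39 (adjusted p = 0.0156), and its 2 other tested probes, at 0.83 and 1.37, were not called (adjusted p = 0.237 and 0.0555). Slc52a3, the riboflavin importer, gave 0.27 ± 0.25 (adjusted p = 0.487). Slc9a3r1, a scaffold named for a sodium-hydrogen exchanger, fell by 1.21 ± 0.27 (0.021), the 1 call among 4 proteins that bind or neighbour a carrier without being one. Slc44a4 lost its call without C12-N1 (0.0548), Slc27a2 without C12-N1 or C12-N2 (0.0668 and 0.0628), Slc44a2 without C12-N2 or C12-T1 (0.103 and 0.0671), Slc46a1 without 5 arrays (up to 0.205, without C12-N2) and Slc9a3r1 without C12-N1, C12-N2 or C12-T1 (up to 0.106).

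Tumor was next set against normal colon within wild-type mice. No member was called by limma, as of all probes (0% called), and the lowest adjusted p of a member was 0.29. At an unadjusted p under 0.05 there were 13 of the 161 members and 1154 of all 13327 probes. The median was -0.03 over the members. The 6 smallest p-values belonged to Slc2a4 (1.13 ± 0.24), Slc44a1, a choline carrier (0.88 ± 0.23), Slc2a10 (-1.18 ± 0.32), Slc6a8 (0.74 ± 0.22), Slc4a2 (-0.83 ± 0.25) and Slc51a (-1.49 ± 0.45). In each of these 6 the WT-T arrays did not overlap the WT-N arrays, as in 45.7% of all probes (22.4% higher and 23.3% lower). Slc2a4 read 8.70 and 8.46 in WT-T, against 7.46 and 7.45 in WT-N, and Slc51a read 5.41 and 6.86 in WT-T, against 7.70 and 7.55 in WT-N. Slc26a3, Slc26a2, Slc13a2, Slc5a8 and Slc7a5, which differed by 1.95 to 4.98 log2 units in size in the deficient mice, gave 0.24, 0.40, -0.90, 0.41 and 0.02 here. Slc7a11 was high on WT-T1 (8.93) and below background on WT-T2 (6.44). Without WT-T2, 2 members were called, or 1.24% beside 0.788% of all probes.

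Whether the tumor difference itself depended on genotype was tested as an interaction, the C12 difference minus the WT difference. It was called for 14 of 161 members, 2 higher and 12 lower, or 8.7% beside 3.91% of all probes (1.55% higher and 2.36% lower). Beside these calls, the interaction was called lower for 2 of 5 absorptive colonocyte markers (median -4.75). It was called higher for 2 of 7 leukocyte markers (S100a8 at 8.79 and S100a9 at 8.73) and 1 of 6 squamous markers (Lor at 5.79). The proximal or small intestinal markers Sis (-3.44), Cyp4b1 (-3.35) and Hoxb6 (-4.36) met the detection rule through C12-N alone, so their values are a description. Fabp6, of the same list, was not called (-2.06, adjusted p = 0.207). The markers' part was not tested. The 12 were Slc51a (-5.60 ± 0.64, adjusted p = 0.00877), Slc39a5, Slc17a4, Slc26a2, Slc2a4, Slc26a3, Slc35f5, Slco2b1, Slc2a13, Slc35d1, Slc40a1 and Slc35d3 (a member through C12-N alone, so a description), and the 2 were Slc15a3 (2.46 ± 0.51, adjusted p = 0.0452) and Slc7a5 (2.45 ± 0.40, adjusted p = 0.0249). The layouts differed. Slc51a, Slc17a4, Slc35d1 and Slc35d3 were higher on both C12-N arrays than on any other array. Slc39a5, Slc26a2, Slc26a3, Slc2a13 and Slc40a1 were lower on both C12-T arrays than on any other array. For Slc40a1 the values were 12.79 and 12.35 in C12-T, 13.42 and 13.76 in C12-N, 14.67 and 14.55 in WT-T and 13.96 and 14.05 in WT-N, so that WT-T was the highest group. Slc2a4 read 7.49 and 7.47 in C12-T, 8.47 and 8.98 in C12-N, 8.70 and 8.46 in WT-T and 7.46 and 7.45 in WT-N, low in C12-T and WT-N and high in C12-N and WT-T. Slc13a2 (-4.08 ± 1.18, adjusted p = 0.105), Slc30a10 (-5.21 ± 1.26, adjusted p = 0.0662), Slc7a11 (3.06 ± 1.05, adjusted p = 0.151) and Slc5a8 (-3.55 ± 1.35, adjusted p = 0.189) were not called. None of the 14 calls was kept with each array left out in turn: the count was 8 without C12-T1 (4.97% of members, beside 2.85% of all probes), 26 without C12-T2 (16.1% beside 8.56%), and 0 without C12-N1 or C12-N2 (beside 0.368% and 0.173%). It was 9 without WT-T1 (5.59% beside 2.54%), 1 without WT-T2 or WT-N2 (0.621% beside 0.938% and 0.863%) and 2 without WT-N1 (1.24% beside 0.75%).

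**Figure D4:**
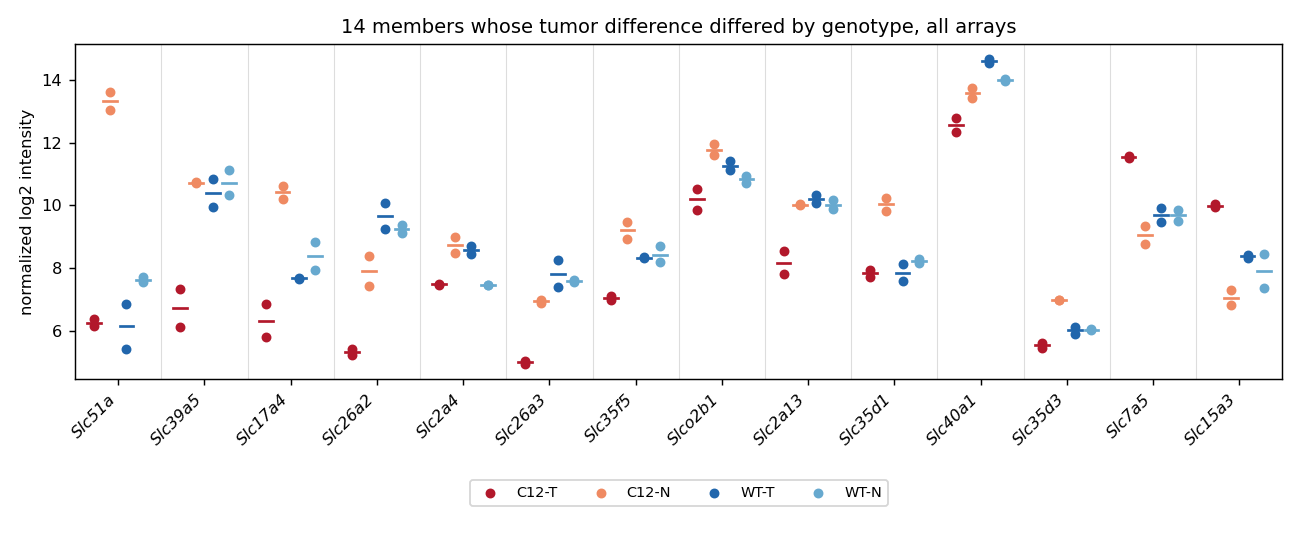
Normalized log2 intensity on each array of the 14 members called for the interaction, ordered from the most negative to the most positive; points are arrays, short bars are group means, and groups run C12-T, C12-N, WT-T, WT-N within each gene. Slc51a is high in C12-N alone, Slc26a3 is lowest in C12-T, and Slc7a5 is highest in C12-T.

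Caspase-12 deficient normal colon was then set against wild-type normal colon. The call was made for 11 members, 4 higher and 7 lower, or 6.83% beside 2.19% of all probes (1.01% higher and 1.19% lower). Median differences were -0.07 over the members and 0.01 over all probes. Arrays did not overlap for 51 members higher and 59 lower, beside 28.5% and 26.5% of all probes (55.1% in all). Slc51a read 13.06 and 13.62 in C12-N, against 7.70 and 7.55 in WT-N, which made it 5.71 ± 0.45 (adjusted p = 0.00166) higher, while its partner Slc51b overlapped between the groups (1.30 ± 1.18, adjusted p = 0.624). Slc35d1 and Slc2a4 rose by 1.81 ± 0.27 (adjusted p = 0.0207) and 1.27 ± 0.24 (adjusted p = 0.0459). The remaining call was Slc18a2, below background in WT-N and at least 1.04-fold higher (1.62 ± 0.27, a description). Among the 7 falls was that of Slc15a1, the proton-coupled importer of small peptides. It read 5.40 and 5.60 in C12-T, 5.29 and 5.41 in C12-N, 8.76 and 9.03 in WT-T and 8.36 and 8.09 in WT-N, below background on all 4 arrays of deficient mice and above it on all 4 wild-type arrays. That was a fall of at least 2.66-fold (-2.88 ± 0.23, adjusted p = 0.00166). Slc6a4, the serotonin importer, showed the same layout at 5.90 and 5.63 in C12-T, 5.63 and 6.07 in C12-N, 9.36 and 9.70 in WT-T and 9.45 and 7.83 in WT-N, and fell at least 3.56-fold (-2.79 ± 0.49, adjusted p = 0.0347). The creatine importer Slc6a8 read 12.05 and 12.23 in C12-T, 11.16 and 11.12 in C12-N, 14 and 13.71 in WT-T and 13.21 and 13.03 in WT-N and fell by 1.98 ± 0.22 (adjusted p = 0.00634). Slc28a3 was below background in C12-N and fell at least 1.79-fold (0.00453), Slc8b1, the mitochondrial sodium-calcium exchanger, fell by 1.90 (0.0126), Slc35f2, an orphan carrier, fell by 1.86 (0.0108), and Slc45a3 fell by 1.49 (0.0254). Slc30a10 did not pass at 3.45 ± 0.89 (adjusted p = 0.107), with 1 of the WT-N arrays at 8.97 and the other at 6.66.

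Beside these calls, 6 proximal or small intestinal markers had a summed intensity of 2152 to 3069 in C12-N and of 440.8 to 513.7 in WT-N. Of them, Sis, Cyp4b1 and Hoxb6 were above background on both C12-N arrays and on no array of any other group. Fabp1 and Fabp2 were above background on no array. Fabp6 was above it on every array and not called (0.67, adjusted p = 0.603). None of 3 distal colon markers was called, with Hoxd10 at 2.20 (0.0752), Hoxd12 at -0.68 (0.714) and Hoxd13 at -0.93 (0.396). Of 5 absorptive colonocyte markers tested, 1 was called, Tmigd1, which was higher (3.04, adjusted p = 0.0431). Of 7 leukocyte markers, 1 was called, S100a8, which was lower (-3.87, 0.00849). The markers' part in the carrier differences was not tested, and position along the colon and genotype cannot be told apart here. Slc15a1 and Slc51a kept their calls with each array left out. Slc28a3 lost its call without C12-N2 (0.0613), Slc35f2 and Slc6a8 without 3 arrays each (up to 0.0978 and 0.0703, both without C12-N2), Slc35d1, Slc45a3 and Slc8b1 without any 1 of the 4 normal colon arrays (up to 0.129, 0.176 and 0.124), Slc6a4 without 5 (up to 0.189, without C12-N2) and Slc2a4 without 6 (up to 0.274, without C12-N2). The count of calls was 4 without C12-N1 (2.48% of members, beside 0.518% of all probes), 2 without C12-N2 (1.24% beside 0.285%), 3 without WT-N1 (1.86% beside 0.51%) and 5 without WT-N2 (3.11% beside 0.66%).

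The same genotype comparison in tumors called 43 members, 8 higher and 35 lower in C12-T than in WT-T, or 26.7% beside 18.5% of all probes (7.6% higher and 10.9% lower). The members' median was -0.25, and that of all probes was -0.02. Arrays did not overlap for 31 members higher and 72 lower, beside 28% and 32.3% of all probes (60.2% in all). Carboxylate, anion and metal carriers were among the largest falls. The difference was -4.97 ± 0.83 (adjusted p = 0.0101) for Slc13a2 and -4.59 ± 0.95 (adjusted p = 0.0189) for Slc5a8. Slc26a2 fell at least 9.27-fold (-4.34 ± 0.39, adjusted p = 0.00187), Slc26a3 at least 2.59-fold (-2.84 ± 0.30, adjusted p = 0.00328) and Slc39a5 fell by 3.67 ± 0.48 (adjusted p = 0.00521). Among amino acid carriers, 4 fell: Slc15a1 at least 5.48-fold (-3.39 ± 0.23, adjusted p = 0.00091), Slc7a9, the luminal cystine and cationic amino acid exchanger, fell by 3.22 ± 0.91 (0.0473), Slc36a1, a proton-coupled importer of small amino acids, at least 4.61-fold (0.00779), and Slc1a1, the glutamate importer, fell by 2.34 ± 0.46 (0.016). Slc36a1 read 5.86 and 5.95 in C12-T, 6.16 and 5.18 in C12-N, 8.60 and 8.69 in WT-T and 8.10 and 7.04 in WT-N, below background in both deficient groups and above it in both wild-type groups.

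In the same class 5 were called higher. Slc7a11 and Slc7a5 were higher by 2.81 ± 0.74 (adjusted p = 0.0378) and 1.84 ± 0.29 (adjusted p = 0.00811). Slc1a4 read 10.93 and 9.70 in C12-T, 10.37 and 9.67 in C12-N, 7.91 and 7.63 in WT-T and 8.93 and 9.15 in WT-N, lowest in WT-T, and was higher in C12-T by 2.54 ± 0.42 (adjusted p = 0.00995). Slc15a3 was higher by 1.60 ± 0.36 (adjusted p = 0.0239), and Slc7a6, an exchanger of cationic for neutral amino acids that was below background in WT-T, at least 1.97-fold (1.41 ± 0.30, a description). The 3 remaining calls were Slc39a10 (1.58 ± 0.37, a description), Slco4a1, an organic anion and thyroid hormone carrier (1.57 ± 0.43, adjusted p = 0.0422), and Slc2a3 (1.33 ± 0.25, adjusted p = 0.014). Vitamin and choline carriers gave 5 falls, Slc5a6, the importer of biotin and pantothenate (-2.02 ± 0.34), Slc46a1 (-1.97 ± 0.51), Slc46a3 (-1.66 ± 0.41), Slc44a4 (-1.62 ± 0.24) and Slc44a1 (-1.25 ± 0.23). Iron export by Slc40a1 (-2.04 ± 0.24), phosphate import by Slc20a1 (-2.54 ± 0.47) and prostaglandin transport by Slco2a1 (-1.82 ± 0.30) were each represented by a called fall. Slc6a4 fell at least 8.53-fold, the proline importer Slc6a7 was at least 1.75-fold lower (a description), and Slc6a8 gave -1.72 ± 0.22. Called falls among sugar carriers were Slc2a13 (-2.02), Slc37a1 (-1.85), Slc5a1 (-1.25) and Slc2a4 (-1.10). Among nucleoside and nucleotide sugar carriers they were Slc35a3, which carries UDP-N-acetylglucosamine into the Golgi (-1.57), Slc35f2 (-1.43), Slc35f5 (-1.28) and Slc28a3 (-0.96). The rest were Slc24a3 (-1.93), Slc22a23 (-1.53), Slc8b1 (-1.47), Slc41a2, of a magnesium carrier family (-1.29), Slco2b1 (-1.08), Slc9a3r1 (-0.99) and Slc10a7 (at least 1.35-fold). Slc51a (0.11 ± 0.45, adjusted p = 0.882) and Slc51b (-1.97 ± 1.18, adjusted p = 0.279) were not called between the tumors.

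In this comparison the absorptive colonocyte markers summed to 3973 to 9568 in C12-T and 5.756e+04 to 9.605e+04 in WT-T, with 4 of 5 called lower. Squamous markers summed to 5.461e+04 to 1.29e+05 in C12-T and 1184 to 7.08e+04 in WT-T. Of these 6, 2 were called higher, Lor (7.05) and Krtdap (5.85), but Krtdap would not have met the detection rule without C12-T. Of 7 leukocyte markers, S100a8 (4.92) and S100a9 (5.92) were called higher and Cd79b (-1.57) lower. Of 7 general epithelial markers tested, 3 were called lower. The markers' part was not tested. The count of calls was 26 without C12-T1 (16.1% of members, beside 8.37% of all probes) and 18 without WT-T2 (11.2% beside 8.93%), and 17 calls were kept with each array left out, among them Slc26a2, Slc26a3, Slc39a5, Slc15a1, Slc36a1, Slc40a1, Slc6a4, Slc6a8, Slc44a4 and Slc7a5. Slc13a2 and Slc1a4 lost their calls without WT-T2 (0.055 and 0.0516), and Slc5a8 without WT-T1 or WT-T2 (0.0825 and 0.0685). Slc20a1, Slc2a3 and Slc37a1 did so without 2 arrays each (up to 0.0639, 0.0569 and 0.0887) and Slc1a1 without 1 (0.0743). Slc5a1 lost its call without 3 arrays (up to 0.0789), Slc15a3, Slc2a4 and Slc35f5 without 4 (up to 0.0865, 0.0784 and 0.0711), Slc35a3 without 5 (up to 0.12), Slc46a1 and Slc46a3 without 5 (up to 0.144 and 0.116), and Slc7a9 and Slc28a3 without 6 (up to 0.155 and 0.132). Slc7a11 and Slco4a1 lost theirs without 7 arrays (up to 0.133 and 0.161, both without C12-T1), as did Slc10a7, Slc24a3, Slc41a2 and Slco2b1 (up to 0.222, 0.122, 0.175 and 0.182), and Slc9a3r1 lost it without each of the 8 (up to 0.182).

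The 2 genotype comparisons share no array, though they share one model. Of the 7 members called lower in normal colon, 6 were also called lower in tumors, namely Slc15a1, Slc28a3, Slc35f2, Slc6a4, Slc6a8 and Slc8b1. That was 85.7% of the normal colon list and 17.1% of the 35 in tumors. Over all probes, 86 were lower in both, or 54.4% of the 158 in normal colon and 5.94% of the 1448 in tumors. No member was called higher in both, of only 4 higher in normal colon and 8 in tumors. Over all probes, 18 were higher in both, or 13.4% of the 134 in normal colon and 1.78% of the 1013 in tumors. Slc2a4 was called in opposite directions, at 1.27 in normal colon and -1.10 in tumors. For Slc8b1 the values were 10.68 and 10.91 in C12-T, 10.59 and 10.34 in C12-N, 12.06 and 12.48 in WT-T and 12.51 and 12.22 in WT-N, and for Slc35f2 6.92 and 6.72 in C12-T, 7 and 6.60 in C12-N, 8.13 and 8.37 in WT-T and 8.59 and 8.73 in WT-N. In both genes each array of deficient mice lay below each wild-type array.

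**Figure D5:**
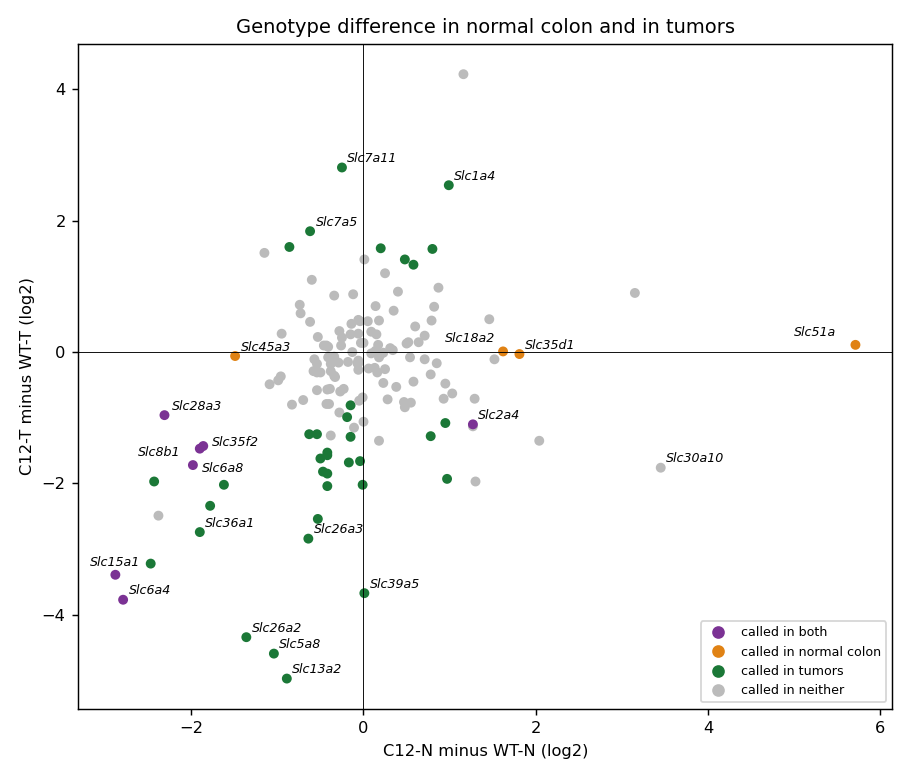
Log2 difference of each member between deficient and wild-type mice, in normal colon (C12-N minus WT-N, horizontal axis) and in tumors (C12-T minus WT-T, vertical axis); each point is 1 gene and colours mark the comparison that called it. Slc15a1 and Slc6a4 lie low on both axes, whereas Slc51a is high at 5.71 in normal colon and near 0 in tumors.

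Of 27 partner genes of solute carriers (chaperones, the sodium pump, regulators, chloride exit and metal handling), 20 were tested. In C12-T against C12-N, 2 rose and 4 fell, beside 8.7% and 10.7% of all probes. Fxyd3 and Fxyd4, small subunits that tune the sodium pump, rose by 1.91 (adjusted p = 0.00324) and 5.23 (0.0151), with Fxyd4 below background in C12-N. Nr1h4, the bile acid receptor known to drive Slc51a and Slc51b transcription, read 9.68 and 10.89 in C12-T and 12.38 and 13.13 in C12-N, and fell by 2.47 (0.009). Cftr, the chloride channel of secretion, and Heph, the copper oxidase that works with ferroportin, each fell by 2.09 (0.0142 and 0.00258), and Bsg, the chaperone of monocarboxylate carriers, by 1.26 (0.0459), although its probe was below background on all 4 of these arrays. In C12-T against WT-T, 2 rose and 4 fell, beside 7.6% and 10.9% of all probes. They were Fxyd3 (2.13) and Mt2 (1.80), and Heph (-1.95), Nr1h4 (-1.87), Sgk1 (-1.69) and Bsg (-1.33). In C12-N against WT-N and in WT-T against WT-N none was called, beside 2.19% and 0% of all probes. The interaction was called for Fxyd3 (2.88, adjusted p = 0.0111) and Heph (-1.91, 0.0363), beside 3.91% of all probes. Nr1h4 gave 0.84 ± 0.43 (adjusted p = 0.36) in C12-N against WT-N and -1.87 ± 0.43 (adjusted p = 0.0251) in C12-T against WT-T. Its part in the Slc51a and Slc51b differences was not tested.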

How the data were processed

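The authors deposited, per the file headers, non-normalized signal intensities with detection p-values of 25697 probes on 8 arrays, made with BeadStudio 3.2.7 per the submitters' processing notes. A deposited table held log2 values equal to log2 intensity minus the log2 of each array's mean intensity, to within 1.71e-05, and served as an alternative. Intensities were background corrected from the detection p-values and quantile normalized on the log2 scale (neqc, offset 16) in limma 3.58.1 under R 4.3.3. A probe was above background where its detection p-value was under 0.01, and 13327 probes passing on at least 2 arrays were tested.

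One limma model of 4 group means (4 residual and 3.55 prior degrees of freedom) gave all contrasts, two-sided, with Benjamini-Hochberg adjustment over all probes tested and a threshold of 0.05. The ± values are standard errors of log2 differences. Precision is limited by how many arrays there are. The procedure was tested on simulated data for C12-T against C12-N, with few probes changed. There, 11.3% of probes changed by 1 log2 unit were called, 64.5% of those changed by 2 and 88.2% of those changed by 3. Of unchanged probes, 0.035% were called. A difference near 1 log2 unit could thus often go uncalled.

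Where a group was above background on no array, its arrays were set at the lowest signal above background for an "at least" fold. Groups come from the sample titles, and array columns were matched to samples through the sample descriptions. Members were sorted by substrate family, and Slc7a6os and Slc4a1ap were moved to the proteins named for a carrier after their values were seen. Named in each comparison were up to 3 called members in each direction per class with the largest difference, the 6 smallest p-values where fewer than 6 were called, and 36 carriers chosen by name. The remaining called members named were added after their values were seen. Members and lists were chosen with earlier results of these data known. Probe names came from the platform annotation, in which 23978 probes had 1 gene symbol, 1719 had none and 0 had several. The alternatives tried were other background and scaling methods, filters, array weights, all probes of a gene, a replicate block and each array left out.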

Additional observations from a re-analysis of the deposited data

Results flagged for a closer look

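The tumor difference differed between the genotypes, by limma's interaction test over all probes, for 14 members. Markers that moved with this test stand in the report beside the counts. Called lower were 2 of 5 absorptive colonocyte markers, and called higher were 2 of 7 leukocyte markers and 1 of 6 squamous markers. The proximal or small intestinal markers Sis, Cyp4b1 and Hoxb6 met the detection rule through C12-N alone, so their values are a description. The markers' part was not tested. The values are the C12 difference minus the WT difference in log2 units. They were -5.60 for Slc51a, -3.68 for Slc39a5, -3.39 for Slc17a4, -2.99 for Slc26a2, -2.37 for Slc2a4, -2.19 for Slc26a3, -2.05 for Slc35f5, -2.03 for Slco2b1, -2.01 for Slc2a13, -1.83 for Slc35d1, -1.62 for Slc40a1 and -1.43 for Slc35d3, a member through C12-N alone and so a description. They were 2.45 for Slc7a5 and 2.46 for Slc15a3. Adjusted p-values ran from 0.00877 for Slc51a to 0.0478 for Slc40a1. Slc51a lost its call without C12-N1 or C12-N2 (adjusted p = 0.0511 and 0.0528), and the other 13 without at least 5 of the 8 arrays. One further probe of Slc39a5 gave -0.32 for the same test (adjusted p = 0.681), and its 2 others gave -3.23 and -3.38 (0.0311 and 0.0362).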

How the results depend on the processing

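The samples of one number were not paired by the labels, and the correlation of replicate differences between groups ran from -0.031 to 0.161. With the replicate number as a block, members called were 52 in C12-T against C12-N, 0 in WT-T against WT-N, 11 in C12-N against WT-N, 44 in C12-T against WT-T and 10 for the interaction. Over all 13327 probes the block called 1233 higher and 1417 lower, 0 and 0, 120 and 161, 1087 and 1474, and 221 and 277 in that order. Leaving out 1 array at a time gave 19 to 49, 0 to 2, 2 to 16, 18 to 44 and 0 to 26 calls in the same order, with 6.07% to 20.3%, 0% to 0.788%, 0.285% to 3.53%, 8.37% to 15.6% and 0.173% to 8.56% of all probes called. It gave medians of -0.31 to -0.16, -0.05 to -0.03, -0.20 to 0.01, -0.32 to -0.24 and -0.31 to -0.03. A lone array left in a group is there assumed to vary like the other groups. Counts under the other settings stayed within 1.5 times except as follows. With only the 109 members above background on all 8 arrays, 34, 6 and 9 were called in C12-T against C12-N, C12-N against WT-N and the interaction. Of the 9886 probes then tested, 709 were higher and 1079 lower, 54 and 90, and 102 and 227 in that order. Array weights gave 20 in C12-N against WT-N, with 294 of all probes higher and 347 lower, beside 134 and 158. For the interaction, the deposited values gave 9 (122 of all probes higher and 243 lower, beside 206 and 315). No filter on dim probes gave 4 for it (115 and 182 of 25697 probes). The split of calls in C12-N against WT-N was 5 higher and 5 lower with the deposited values, beside 4 and 7. Over all probes it was 123 and 110, beside 134 and 158. The median of C12-T against C12-N was -0.01 with the deposited values, under which the median of all probes moved to 0.11. In WT-T against WT-N the members' median was -0.14 with median scaling, -0.05 with cyclic loess, 0.10 with the deposited values and -0.07 over members above background on all arrays. Under median scaling and the deposited values the median of all probes there was -0.13 and 0.12. In C12-T against WT-T the members' median was -0.16 without background correction and -0.11 with the deposited values, beside -0.25. No named member changed sign past the threshold under any setting run. The cause of these shifts was not tested. Values below background give only bounds. Of 43 further probes of 32 members, 14 belonged to members called in C12-T against C12-N, of which 8 had the same call and none the opposite sign. In C12-T against C12-N, 2 members were called by another probe only, Slc11a1 by 2 probes (1.45 and 1.05) and Slc35b3 by 1 (-1.06). In C12-T against WT-T, 7 further probes belonged to called members, of which 5 had the same call and none the opposite sign. Those not called were of Slc39a5 (-0.3, adjusted p = 0.459) and Slc10a7 (-0.34, 0.53). Called there by another probe only were Slc11a1 (1.0), Slc16a6 (2.35), Slc35a1 (-1.95), Slc35b3 (-1.45) and Slc39a7 (-0.92).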

Other observations

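Slc4a1, the anion exchanger of red blood cells, was above background on C12-T1 and on 1 array of C12-N, at 12.96 and 5.57 in C12-T, 7.13 and 5.85 in C12-N, 4.98 and 5.08 in WT-T and 5.21 and 5.45 in WT-N. C12-T1 stood at 12.96, and the difference between C12-T and WT-T of 4.23 ± 1.94 (adjusted p = 0.169) was not called. Pendrin, Slc26a4, a chloride and iodide exchanger, read 7.14 and 8.68 in C12-T, 5.83 and 5.87 in C12-N, 8.21 and 6.21 in WT-T and 5.79 and 5.63 in WT-N. It was high on both C12-T arrays and on WT-T1, and the difference of 2.06 ± 0.68 in deficient mice missed the threshold (adjusted p = 0.0722). The zinc importer Slc39a6 was likewise highest on both C12-T arrays and WT-T1, at 10.66 and 11.07 in C12-T, 9.17 and 8.99 in C12-N, 10.99 and 8.91 in WT-T and 8.56 and 8.79 in WT-N (1.79 ± 0.59, adjusted p = 0.071). Slc34a2, the sodium-phosphate importer of the luminal membrane, read 8.28 and 6.48 in C12-T, 6.02 and 8.31 in C12-N, 9.76 and 9.98 in WT-T and 9.41 and 9.67 in WT-N. All 4 wild-type arrays lay above all 4 arrays of deficient mice, and neither genotype difference was called (-2.38 ± 0.78, adjusted p = 0.172 in normal colon and -2.49 ± 0.78, adjusted p = 0.0641 in tumors). These members were chosen after their values were seen.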
